A study of Mus musculus with 12 samples.

Results

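The integrin, laminin and nidogen genes were described in mouse adipocyte precursor cells across 4 groups of fat depot and diet. Members were the rows of the count table whose symbol named an integrin alpha or beta subunit by number (or Itgav), a laminin alpha, beta or gamma chain, or a nidogen. The rule found 34 of 14398 genes, and all 34 passed the filter on low counts, which kept 14266 genes. The beta subunits Itgb2 and Itgb7 are known mainly from leukocytes and are given apart, which leaves 32 other members. The leukocyte alpha subunits Itgal, Itgam and Itgax lie outside the pattern and serve only as markers.

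Cells were sorted from the fat of male C57Bl6/J mice of 6 to 8 weeks by a gate that took CD29+, CD34+ and Sca1+ cells lacking CD45 and CD31, whether CD24+ or not, and their poly(A) RNA was sequenced. The groups were perigonadal (visceral) fat after a high-fat diet with 60% lard for 3 days (VWAT_HFD), perigonadal fat on the standard diet (VWAT_SD), inguinal (subcutaneous) fat on the same high-fat diet (SWAT_HFD) and inguinal fat on the standard diet (SWAT_SD). Each group had 3 libraries, and each library was pooled from 3 mice. The labels give the standard-diet samples as day 0 and the high-fat samples as day 3, so if the SD mice were collected at the start, the day of collection cannot be told apart from the diet. CD29 is the protein of Itgb1, itself a member, so the sort selected on 1 of the genes described here.

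Integrins are receptors made of 1 alpha and 1 beta subunit that link the matrix outside a cell to its actin skeleton. The alpha subunit largely sets the ligand: collagens, laminins, or proteins with the Arg-Gly-Asp (RGD) motif such as fibronectin and vitronectin. Laminins are trimers of 1 alpha, 1 beta and 1 gamma chain that form a sheet of the basement membrane, and nidogens bind laminin gamma1 and collagen IV. Each mature fat cell lies in its own basement membrane, and precursor cells sit in the fibrillar matrix around vessels and fat cells.

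The libraries held 17.6 to 56.1 M gene counts (M, 1e6), and the members took 1.03 to 1.72% of them. Levels below are CPM (counts per 1e6 gene counts after TMM scaling), given per library or as mean ± SD over 3 libraries. The precursor markers summed to 20062 to 27783 CPM in VWAT and 36568 to 78984 CPM in SWAT, where the sum was 45875 to 78984 CPM on HFD and 36568 to 39553 CPM on SD. Most of each sum was Col1a1 and Dcn, Cd24a was at 1.72 to 19.6 CPM, and of 12 precursor markers 1 was called higher and 7 lower in VWAT on SD, and 2 higher and 5 lower on HFD. The summed leukocyte markers lay between 8.56 and 48.8 CPM. SWAT_HFD replicate 2 stood apart with the 48.8 CPM; the other 11 libraries had at most 19.7 CPM. Summed cycling markers were 76.4 to 292 CPM in VWAT_HFD against 16.6 to 25.9 CPM in VWAT_SD, and 65.5 to 91.7 CPM in SWAT_HFD against 8.72 to 15.4 CPM in SWAT_SD. Schwann cell markers summed to 7.48 to 13.8 CPM in VWAT and 36.4 to 45.3 CPM in SWAT. The mesothelial list summed to 103 to 131 CPM in VWAT and 2.41 to 4.83 CPM in SWAT, and nearly all of the VWAT sum was Wt1 (97.8 to 128 CPM), with the defining marker Msln at 0.323 to 1.62 CPM. In bulk RNA, fewer cells of a type and less RNA per cell cannot be told apart.

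Promoter windows are shown for 5 members on which the results turn. Itga5 and Itgb1 encode the pair that forms the fibronectin receptor, and Lamb1 the laminin beta chain that was higher in VWAT_HFD. Itgb8 and Itgb7 had the largest fold differences of all members between the depots, in opposite directions. Each window holds 300 bases of GRCm38.p6 around the RefSeq gene start, on the gene's own strand. RefSeq windows were read for 22 of the 34 members. They lie at chr15:103366742-103367041 (minus strand) for Itga5, chr8:128685404-128685703 (plus) for Itgb1, chr12:31265043-31265342 (plus) for Lamb1, chr12:119238227-119238526 (minus) for Itgb8 and chr15:102231886-102232185 (minus) for Itgb7. The Itgb8 window lies inside the GENCODE gene model, which starts further upstream. Capitals mark matches on either strand to the GC box GGGCGG, the CCAAT box CCAAT and the TEAD-type motif GGAATG. The TATA box TATAAA, the AP-1 motif TGACTCA, the CRE TGACGTCA and the E-box CACGTG were searched too.
Itga5: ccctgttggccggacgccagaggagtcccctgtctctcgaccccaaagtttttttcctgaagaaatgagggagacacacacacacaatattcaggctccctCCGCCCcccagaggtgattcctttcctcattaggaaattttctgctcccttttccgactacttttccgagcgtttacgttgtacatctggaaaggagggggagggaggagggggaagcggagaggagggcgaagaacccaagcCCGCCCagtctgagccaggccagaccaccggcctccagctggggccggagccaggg
Itgb1: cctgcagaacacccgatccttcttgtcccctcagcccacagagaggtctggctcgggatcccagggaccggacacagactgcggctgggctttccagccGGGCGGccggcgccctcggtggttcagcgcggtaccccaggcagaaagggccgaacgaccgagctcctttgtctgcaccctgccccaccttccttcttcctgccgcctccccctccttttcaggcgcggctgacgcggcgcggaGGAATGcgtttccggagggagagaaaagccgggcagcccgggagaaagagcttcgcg
Lamb1: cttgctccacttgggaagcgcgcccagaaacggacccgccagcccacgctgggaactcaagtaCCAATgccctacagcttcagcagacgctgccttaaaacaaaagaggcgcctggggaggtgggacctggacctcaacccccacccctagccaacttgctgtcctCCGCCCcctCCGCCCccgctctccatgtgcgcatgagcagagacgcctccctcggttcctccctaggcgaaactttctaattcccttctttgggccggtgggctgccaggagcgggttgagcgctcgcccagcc
Itgb8: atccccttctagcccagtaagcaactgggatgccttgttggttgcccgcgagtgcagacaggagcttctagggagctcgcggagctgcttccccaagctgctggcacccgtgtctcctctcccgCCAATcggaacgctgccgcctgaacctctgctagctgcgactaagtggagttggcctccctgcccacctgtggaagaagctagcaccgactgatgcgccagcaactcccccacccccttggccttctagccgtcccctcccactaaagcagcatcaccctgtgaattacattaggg
Itgb7: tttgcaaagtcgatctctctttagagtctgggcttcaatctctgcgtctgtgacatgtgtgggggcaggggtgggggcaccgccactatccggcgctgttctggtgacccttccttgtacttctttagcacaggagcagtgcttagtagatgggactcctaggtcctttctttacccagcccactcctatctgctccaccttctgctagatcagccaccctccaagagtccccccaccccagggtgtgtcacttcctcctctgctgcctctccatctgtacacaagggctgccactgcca
The Itga5 window held 2 GC boxes, the Itgb1 window 1 GC box and 1 GGAATG, and the Lamb1 window 1 CCAAT and 2 GC boxes. The Itgb8 window held 1 CCAAT and the Itgb7 window none of the 7 motifs. Over all 32851 RefSeq promoter windows, 35.7% held a GC box, 37.4% a CCAAT box, 14.7% GGAATG, 13.6% TATAAA, 5.2% TGACTCA, 1.79% TGACGTCA and 7.15% CACGTG, so the matches are common ones and say nothing of a factor's binding.

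Divided by exon length, the members' levels ran from 0.0392 to 665 CPM per kb. Nid1, the linker between laminin and collagen IV, had the highest mean over the 12 libraries. Lamc1, the gamma chain of most laminins, followed with 331 CPM per kb, and Itgb1, the shared partner of many alpha subunits, with 147 CPM per kb. The laminin chains next in order were Lamb2 (139 CPM per kb), Lamb1 (108), Lama2 (97.6) and Lama4 (78.3). The highest alpha subunits were Itga5 of the fibronectin receptor (50.1 CPM per kb), Itga11, a receptor for fibrillar collagen (34.9), and Itgav (13.8), which pairs with several beta subunits. The lowest mean was that of Itga4, and Lama3 and Itga3 came next. Neighbours in this order overlapped across libraries: Lamb2 lay above Lamb1 in SWAT but not in VWAT_HFD. Lama3 and Lamb3, chains of epithelial laminin, and the epithelial subunit Itgb4 lay below Itgav. In GENCODE vM21 (GRCm38), Itga2 (chr13:114833081-114932100) and Itga1 (chr13:114953096-115101964) lie near each other on the minus strand. Only Itga4 shares exon bases, 8.04% of them, with another gene of the count table, Cerkl on the opposite strand, so its values are uncertain.

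**Figure D1:**
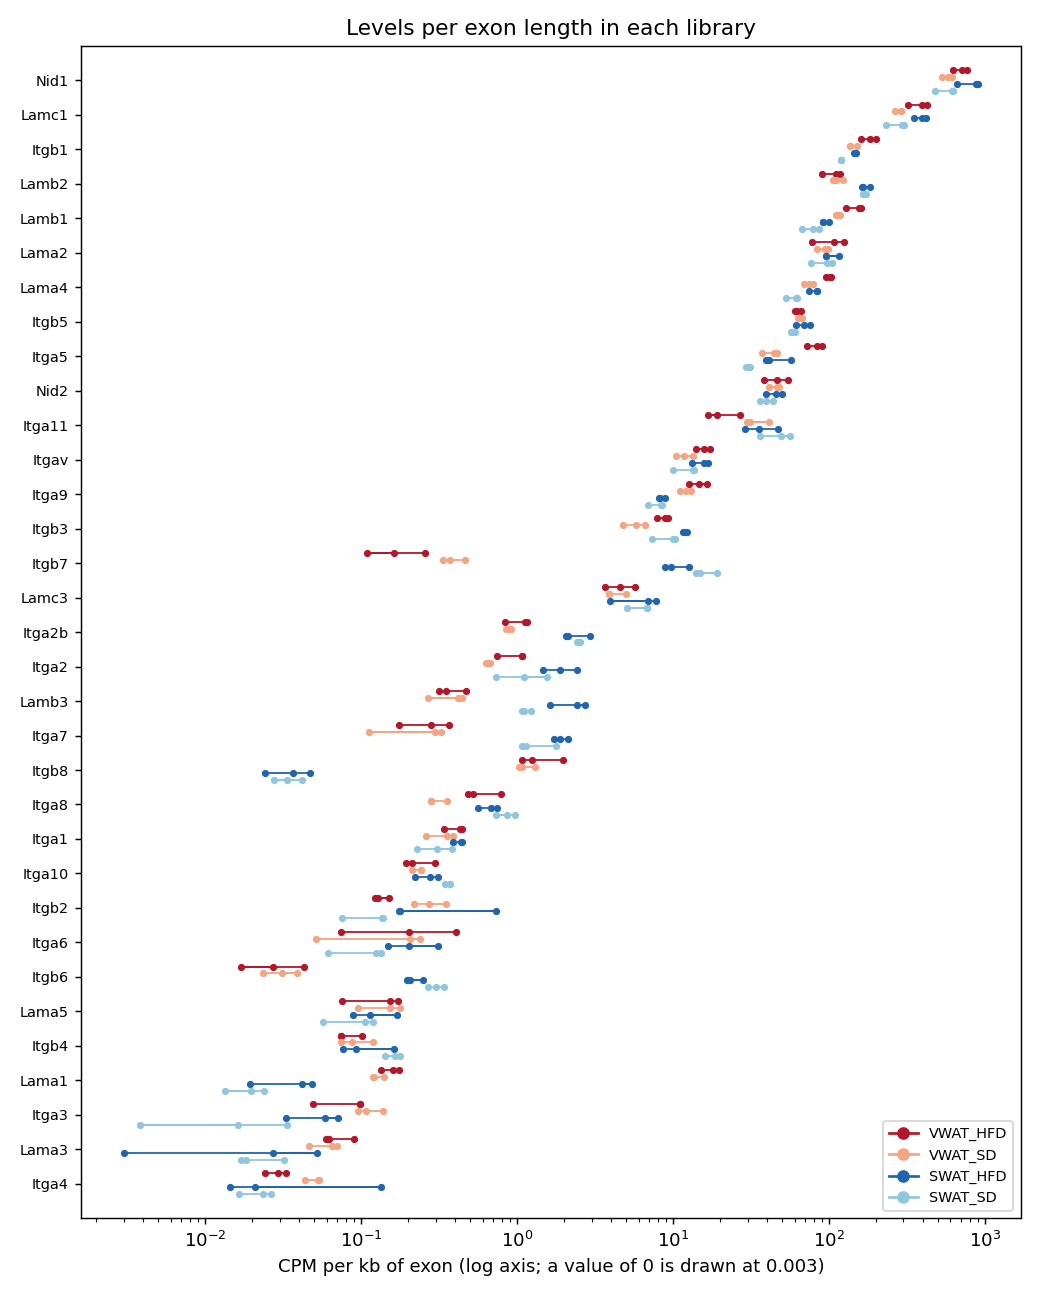
Level of each named member in each library, as TMM-scaled CPM per kb of exon (log axis), ordered by the mean over the 12 libraries; each point is 1 library, lines join the 3 libraries of a group, and a value of 0 is drawn at 0.003. Nid1 and Lamc1 stand at the top, Itga4, Lama3 and Itga3 at the bottom, and the Itgb7 and Itgb8 rows split by depot.

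On 3 days of HFD, precursors from VWAT had more RNA of the fibronectin receptor genes Itga5 and Itgb1, of the RGD receptor subunits Itga8 and Itgb3, and of the laminin chains Lama4, Lamb1 and Lamc1, and less of the collagen receptor subunit Itga11 and of Itgb7. In edgeR's quasi-likelihood test with Benjamini-Hochberg adjustment over all genes, 9 of the 34 members passed at an adjusted p under 0.05, 7 up and 2 down. That is 26.5% of the members, beside 15.6% of all genes tested; 20.6% of the members rose, beside 8.64% of all genes, and 5.88% fell, beside 6.98%. The members' median log2 change was 0.19, against -0.02 for all genes.

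Among the RGD-binding alpha subunits, 2 of 4 rose. Itga5 had 441, 413 and 358 CPM in VWAT_HFD, against 217, 227 and 184 CPM in VWAT_SD. The lowest HFD library lay well above the highest SD library, and the level was 1.93-fold higher (log2 change 0.95, SE 0.14, adjusted p = 0.00133). Itga8, a receptor subunit for nephronectin and fibronectin, had 3.82, 3.55 and 5.79 CPM in VWAT_HFD, against 2.6, 2.07 and 2.07 CPM in VWAT_SD. It was 1.94-fold higher without overlap of the groups (SE 0.201 in log2, adjusted p = 0.00785). Itgav, the partner of Itgb3, had 150, 185 and 170 CPM in VWAT_HFD and 144, 127 and 113 CPM in VWAT_SD, and missed the threshold (log2 change 0.39, SE 0.139, adjusted p = 0.0731). Itga2b, the platelet fibrinogen receptor subunit, had a log2 change of 0.24 (SE 0.151, adjusted p = 0.303).

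Of the 6 beta subunits known from stromal or epithelial cells, 2 rose. Itgb1 had 750, 812 and 658 CPM in VWAT_HFD, against 621, 553 and 557 CPM in VWAT_SD. The groups did not overlap, and the level was 1.28-fold higher (log2 change 0.36, SE 0.0973, adjusted p = 0.0263). Itgb3, the beta chain of the vitronectin receptor, had 52.3, 54.6 and 46.6 CPM in VWAT_HFD, against 38.8, 33.9 and 28.1 CPM in VWAT_SD. It was 1.52-fold higher (log2 change 0.61, SE 0.136, adjusted p = 0.0107), again without overlap. Itgb5, another partner of Itgav, had a log2 change of -0.06 with a 95% interval of -0.26 to 0.14. Itgb4, Itgb6 and Itgb8 had log2 changes of -0.17, -0.07 and 0.33, with adjusted p of 0.278 to 0.951. The level of Itga5 per kb over that of Itga11 was 2.72 to 5.03 in VWAT_HFD and 1.11 to 1.41 in VWAT_SD.

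The collagen-binding and laminin-binding alpha subunits held a single call. Itga11 had 98.5, 85.4 and 137 CPM in VWAT_HFD, against 160, 212 and 152 CPM in VWAT_SD. It was 1.63-fold lower, with the highest HFD library below the lowest SD library (log2 change -0.71, SE 0.22, adjusted p = 0.0463). Itga1, Itga2 and Itga10, the other collagen receptor subunits, had log2 changes of 0.27, 0.57 and 0.01 and adjusted p of 0.127 to 0.988. Itga3, Itga6 and Itga7, which bind laminins with Itgb1 or Itgb4, had log2 changes of -0.45, 0.47 and 0.16 with SE of 0.345 to 0.561. Itga4, the leukocyte-type receptor subunit for VCAM1, and Itga9, a tenascin receptor subunit, had log2 changes of -0.8 (SE 0.561) and 0.27 (SE 0.112) and did not pass.

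Among the laminins, 1 chain of each kind rose. Lama4, an alpha chain of vessel and fat cell basement membranes, had 1234, 1246 and 1147 CPM in VWAT_HFD, against 949, 898 and 828 CPM in VWAT_SD. Its level was 1.36-fold higher without overlap (log2 change 0.44, SE 0.103, adjusted p = 0.0135). Lamb1 had 1281, 1535 and 1588 CPM in VWAT_HFD, against 1133, 1159 and 1088 CPM in VWAT_SD, a 1.3-fold difference (log2 change 0.38, SE 0.117, adjusted p = 0.0428). Lamc1 had 2670, 3265 and 3494 CPM in VWAT_HFD, against 2394, 2404 and 2177 CPM in VWAT_SD, a 1.35-fold difference (log2 change 0.43, SE 0.137, adjusted p = 0.0477). In both genes VWAT_HFD replicate 1 was the lowest HFD library and still above all SD libraries. The main alternative chains gave no call: Lama2, the muscle-type alpha chain, had a log2 change of 0.16 (95% interval -0.2 to 0.53), and Lamb2 one of -0.09 (-0.34 to 0.16). The level of Lamb1 over that of Lamb2, both per kb, was 1.37 to 1.44 in VWAT_HFD and 0.902 to 1.11 in VWAT_SD. Lama1, Lama3, Lama5, Lamb3 and Lamc3 had log2 changes between -0.09 and 0.3, and none passed. Nid1 (log2 change 0.29, SE 0.152, adjusted p = 0.211) and Nid2 (0.04, SE 0.134) did not pass either.

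**Figure D2:**
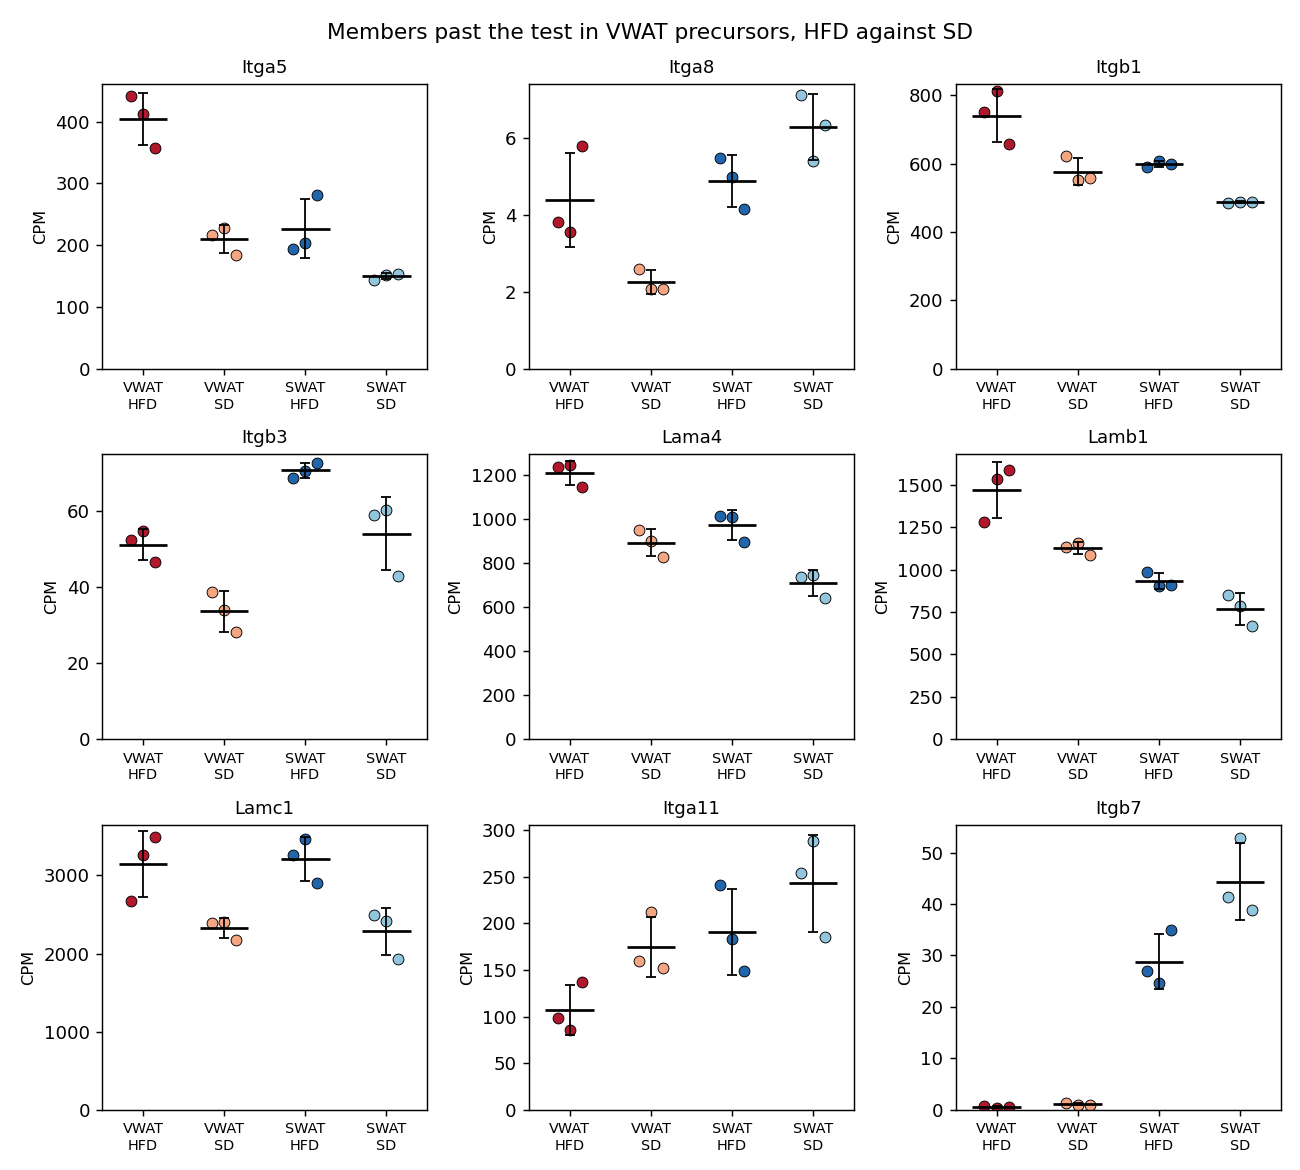
CPM of the 9 members past the test for HFD against SD in VWAT, in all 4 groups; each point is 1 library, the long bar is the mean and the error bar the SD (n = 3 libraries). In each panel the VWAT_HFD and VWAT_SD libraries do not overlap, with 7 genes higher and Itga11 and Itgb7 lower in VWAT_HFD.

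These calls differed in how firmly they held. Itga5 and Itga8 passed under all 20 alternatives. The count of 9 fell to 2 (Itga5 and Itga8) without VWAT_HFD replicate 2, to 3 without VWAT_SD replicate 3, and to 5 without VWAT_SD replicate 1 or without VWAT_SD replicate 2. All genes called fell as well, from 2228 to 757, 967, 1394 and 1269 in the same order, so the drop was not particular to the members. Itgb3 missed the threshold without VWAT_HFD replicate 2 or VWAT_SD replicate 3 (adjusted p of up to 0.0575), as did Lama4 (up to 0.0689), which also missed it with only the 6 libraries compared (0.0528). Itgb1 missed it without VWAT_HFD replicates 1 or 2 or VWAT_SD replicates 2 or 3, by library size alone and with only the 6 libraries compared (up to 0.139). Itgb7 missed it without VWAT_HFD replicate 2 or VWAT_SD replicate 1, by limma voom and with only the 6 libraries compared (up to 0.114). Itga11 and Lamb1 each lost their call in 10 of 20 alternatives and Lamc1 in 12, among them VWAT_HFD replicate 2 and each VWAT_SD replicate left out, with adjusted p of up to 0.203, 0.159 and 0.162. The replicate block ended the calls of Itga11 (adjusted p = 0.0694) and Lamb1 (adjusted p = 0.0546). No call changed direction. The rise in cycling markers, 6 of 6 of which passed upward in VWAT, accompanied these changes, and its part in them was not tested. Leaving out VWAT_HFD replicate 3, the library lowest in those markers, together with SWAT_HFD replicate 2 gave 9 member calls, 6 higher and 3 lower. All genes called went from 2228 in the main fit to 4054 there, while the member count stayed at 9. Without VWAT_HFD replicate 3 alone, 8 members and 4266 genes passed. With both libraries left out, 7 of the 9 main calls were kept. Lamb1 (adjusted p = 0.0553) and Lamc1 (0.0605) were lost, and Itga2 (0.0464) and Itgb2 (0.0305) were gained.

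In SWAT, 1 of the 34 members passed for HFD against SD: the laminin chain Lamb3, a partner of Lama3 in epithelial laminin. That is 2.94% of the members, beside 1.11% of all genes tested, of which 0.967% rose and 0.147% fell. Lamb3 had 16, 17.9 and 10.7 CPM in SWAT_HFD, against 8.05, 7.1 and 7.29 CPM in SWAT_SD. It was 1.97-fold higher without overlap (log2 change 0.98, SE 0.213, adjusted p = 0.0482). The call was lost in 12 of 20 alternatives. Without SWAT_HFD replicate 2 or any 1 of the SWAT_SD replicates, 0 of all genes passed, so the loss there was not particular to Lamb3. Its adjusted p was 0.132 without SWAT_HFD replicate 1, 0.236 without SWAT_HFD replicate 2, and 0.178, 0.201 and 0.12 without SWAT_SD replicates 1, 2 and 3, and 0.0507 to 0.0665 without VWAT_HFD replicate 1 or VWAT_SD replicates 1 or 3. Its partner Lama3 did not pass and was at 0.557 CPM or less in all SWAT libraries and at 0 counts in SWAT_HFD replicate 1.

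The members' median log2 change in SWAT was 0.30, against 0 for all genes, and 26 of 34 were positive. Several genes that rose in VWAT had positive changes in SWAT that missed the threshold. Itga5 had 194, 204 and 281 CPM in SWAT_HFD, against 144, 152 and 153 CPM in SWAT_SD, a log2 change of 0.60 (SE 0.14, adjusted p = 0.0633). Lama4 had 1014, 1010 and 894 CPM in SWAT_HFD, against 737, 747 and 642 CPM in SWAT_SD, a log2 change of 0.46 (SE 0.103, adjusted p = 0.0542). Both sets of libraries were apart without overlap. Lamc1 (log2 change 0.49, adjusted p = 0.111), Nid1 (0.50, adjusted p = 0.148), Itgb1 (0.30, adjusted p = 0.18), Itgb3 (0.38, adjusted p = 0.209) and Lamb1 (0.28, adjusted p = 0.287) were positive too. Itgb7 had a log2 change of -0.62 (adjusted p = 0.124). DESeq2's Wald test called 7 members, namely Itga5, Itgb1, Lama4, Lamb3, Lamc1 and Nid1 upward and Itgb7 downward, whereas limma voom called 0. Of all genes, DESeq2 called 519 (405 higher and 114 lower) and limma voom 12. Without SWAT_HFD replicate 2 no member passed, and 0 of all genes did. Without VWAT_HFD replicate 3 there were 4 members (Itga5, Lama4, Lamb3 and Lamc1), beside 615 of all genes. With both left out only Itga5 passed among the members (log2 0.66, adjusted p = 0.037), beside 249 of all genes. Of the other members, Itga3, Itga6 and Itga4 had log2 changes of 1.44, 1.02 and 1.36 with SE of 0.608 to 0.619, at levels of 2.82 CPM or less. The Itga4 value rested on SWAT_HFD replicate 2, with 60 counts against 3 and 14 in replicates 1 and 3; without it the log2 change was -0.28 (adjusted p = 0.899).

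**Figure D3:**
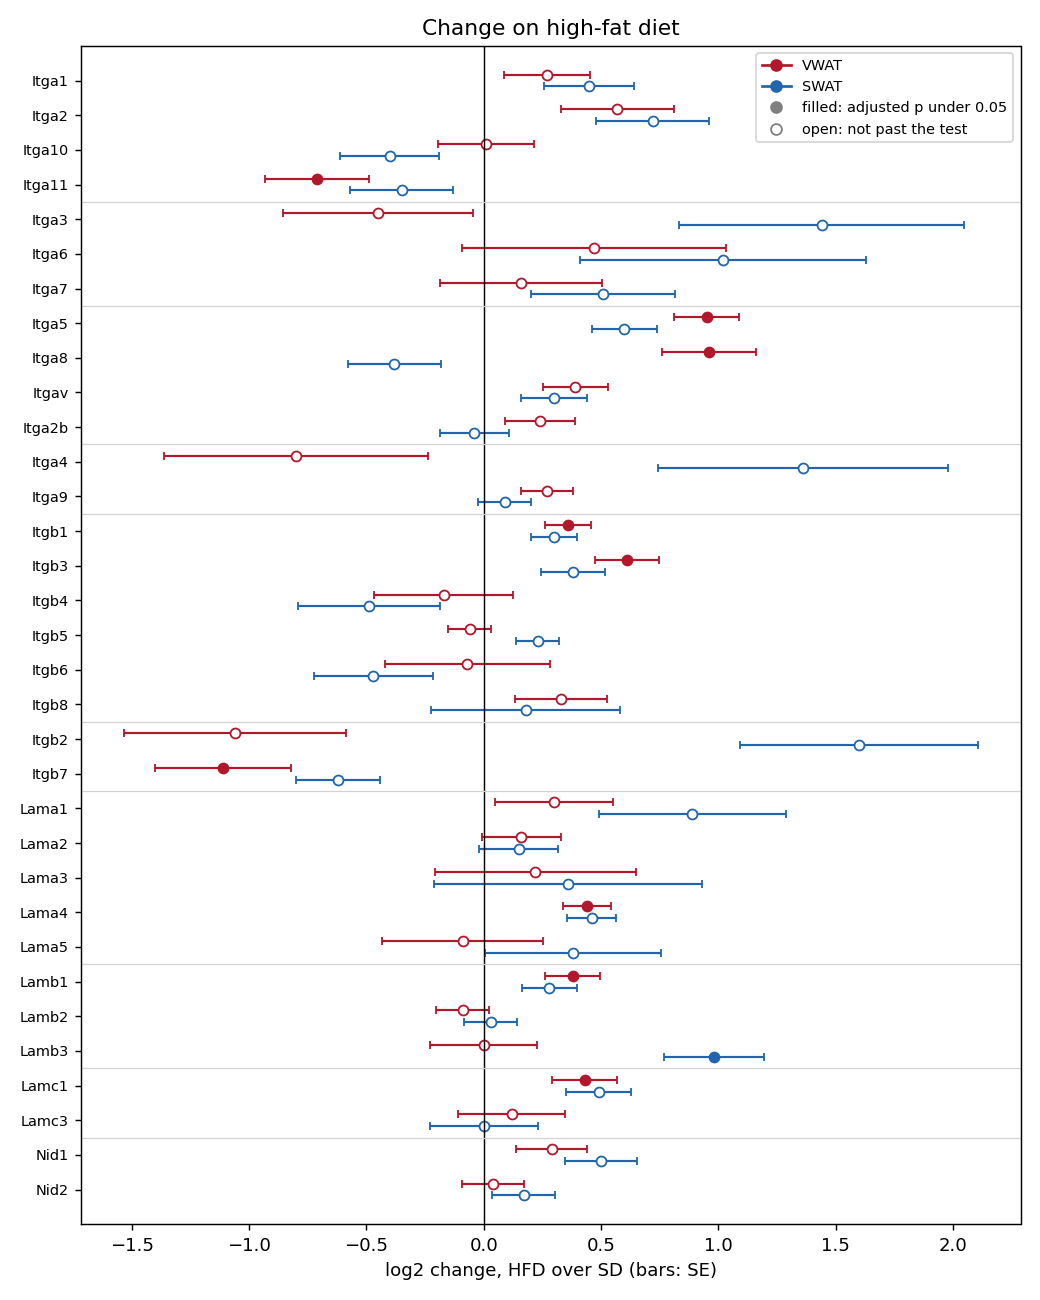
Log2 change of each named member, HFD over SD, in VWAT (red) and SWAT (blue), with bars of 1 SE; filled points have an adjusted p under 0.05. The 9 filled VWAT points and the 1 filled SWAT point, Lamb3, are the calls, and the laminin rows of VWAT and SWAT lie mostly right of 0.

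The diet response was not shown to differ between the depots for any member. The interaction, tested by edgeR, called 0 of 14266 genes, a background of 0%, with 1026 genes at an unadjusted p under 0.05; DESeq2 called 33. Of the members, 6 had an unadjusted p under 0.05, namely Itga3, Itga8, Itga4, Itgb5, Itgb2 and Lamb3. Itga8 had the lowest: its log2 change was 0.96 (SE 0.201) in VWAT and -0.38 (SE 0.2) in SWAT, a difference of 1.34 (SE 0.283, adjusted p = 0.452). Its levels were 3.55 to 5.79 CPM in VWAT_HFD and 2.07 to 2.6 CPM in VWAT_SD, and 4.14 to 5.48 CPM in SWAT_HFD and 5.39 to 7.12 CPM in SWAT_SD. DESeq2's Wald test called this difference (adjusted p = 0.0176), as did edgeR without VWAT_HFD replicate 3 (adjusted p = 0.0479), where 135 genes passed. Lamb3 had log2 changes of 0 (SE 0.229) in VWAT and 0.98 (SE 0.213) in SWAT, a difference of -0.97 (SE 0.313, adjusted p = 0.515). Lama4 had log2 changes of 0.44 in VWAT and 0.46 in SWAT, and Lamc1 0.43 and 0.49.

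The depots differed in more members than the diets did. In VWAT against SWAT on SD, 18 of 34 members passed, 7 higher and 11 lower, or 52.9% of the members beside 25.7% of all genes. On HFD, 18 passed as well, 7 higher and 11 lower, beside 26.8% of all genes. By direction, 13.2% of all genes were higher and 12.5% lower in VWAT on SD, and 13.4% in each direction on HFD. Of the calls, 6 of 7 higher ones and 9 of 11 lower ones on each diet were shared with the other diet. The VWAT cells had more Itga5, Itga9, Itgb8, Lama1, Lama4 and Lamb1 on both diets, and less of members that included Itga2, Itga7, Itga2b, Itgb3, Itgb6, Itgb7, Lamb2 and Lamb3. Scaled by library size alone, which moves the median log2 difference of all genes to 0.236 on SD and 0.301 on HFD, the member counts were 12 higher and 9 lower on SD and 9 and 9 on HFD, with no called member changing direction. Of all genes, 4279 were then called higher and 1118 lower on SD, and 5830 and 1124 on HFD.

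Among the beta subunits, Itgb8, whose pairing with Itgav activates latent TGF-beta, stood out. It had 11.8, 13.7 and 21.7 CPM in VWAT_HFD, against 0.268, 0.402 and 0.52 CPM in SWAT_HFD. On SD it had 11.4, 11.8 and 14.4 CPM in VWAT, against 0.459, 0.303 and 0.367 CPM in SWAT. These are 36.1-fold (log2 5.17, SE 0.288, adjusted p = 3.05e-08) and 32.7-fold (log2 5.03, SE 0.283, adjusted p = 3.2e-08) higher levels, although the SWAT libraries held only 4 to 25 counts each. Itgb6, an epithelial RGD receptor subunit that also activates latent TGF-beta with Itgav, went the other way. It had 0.303, 0.12 and 0.194 CPM in VWAT_HFD and 1.4, 1.76 and 1.46 CPM in SWAT_HFD, and was 7.31-fold lower in VWAT on HFD (log2 -2.87, SE 0.303) and 9.72-fold lower on SD (log2 -3.28, SE 0.293). Itgb3 was 1.38-fold lower in VWAT on HFD (adjusted p = 0.0217) and 1.61-fold lower on SD (adjusted p = 0.00188); the HFD call was lost without VWAT_HFD replicate 3, SWAT_HFD replicate 2 or SWAT_HFD replicate 3 (up to 0.0568) and by library size alone (adjusted p = 0.261). Itgb1 was 1.24-fold higher on HFD (adjusted p = 0.0327) and had a log2 difference of 0.24 on SD (adjusted p = 0.0879). Its HFD call was lost without any 1 of VWAT_HFD replicates 1 and 2 and the 3 SWAT_HFD replicates (up to 0.143). It was also lost with only the 6 libraries compared (0.118). Itgb4 and Itgb5 did not pass on either diet, with Itgb5 at log2 differences of -0.12 on HFD and 0.17 on SD.

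Among the alpha subunits, Itga5 was 1.78-fold higher in VWAT on HFD (log2 0.83, SE 0.14, adjusted p = 0.000512) and 1.4-fold higher on SD (log2 0.48, SE 0.139, adjusted p = 0.0212). The SD call was lost in 4 of 20 alternatives, without VWAT_SD replicate 1, VWAT_SD replicate 2, SWAT_SD replicate 1 or SWAT_SD replicate 2, with adjusted p of up to 0.0882. Itga9 had 97.7, 126 and 112 CPM in VWAT_HFD against 62.7, 68.5 and 62.9 CPM in SWAT_HFD, and 101, 92.4 and 84.7 CPM in VWAT_SD against 64, 65 and 53.1 CPM in SWAT_SD. It was higher in VWAT in each library of both diets, by 1.73-fold and 1.52-fold, and passed under all 20 alternatives. Itga7, the muscle-type laminin receptor subunit, had 2.97, 2.27 and 1.42 CPM in VWAT_HFD against 17.2, 14 and 15.3 CPM in SWAT_HFD, and was 6.89-fold lower on HFD and 5.39-fold lower on SD (adjusted p = 3.1e-05 and 0.000101). Itga2 was 1.96-fold lower on HFD and 1.76-fold lower on SD. On SD it lost its call by library size alone (adjusted p = 0.0504) and without any 1 of the VWAT_SD replicates or SWAT_SD replicate 2 (up to 0.149). Itga8 was 2.79-fold lower in VWAT on SD (log2 -1.48, SE 0.202, adjusted p = 9.6e-05) and had a log2 difference of -0.14 on HFD (adjusted p = 0.676). Itga3 was 5.91-fold higher in VWAT on SD (log2 2.56, SE 0.524, adjusted p = 0.00238), from 102 counts in VWAT_SD and 13 in SWAT_SD over 3 libraries each; without SWAT_SD replicate 1 the log2 difference was 3.72, and without SWAT_SD replicate 2 it was 2.02. Itga10 was 1.56-fold lower on SD (adjusted p = 0.0329) and Itga11 1.78-fold lower on HFD (adjusted p = 0.0127). Itga10 lost its call without any 1 of the 6 SD libraries (adjusted p of up to 0.11) and by library size alone (0.14). Itga11 lost its call without VWAT_HFD replicate 2 (0.0616) or SWAT_HFD replicate 1 (0.0648) and by library size alone (0.0514). Itga1, Itga6, Itgav and Itga4 did not pass on either diet.

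The laminin beta chains differed between the depots in opposite directions. Lamb1 was 1.57-fold higher in VWAT on HFD (log2 0.65, SE 0.117, adjusted p = 0.000859) and 1.47-fold higher on SD (log2 0.55, SE 0.117, adjusted p = 0.003). Lamb2, which takes the same place in the trimer, had 544, 673 and 713 CPM in VWAT_HFD against 993, 1118 and 1007 CPM in SWAT_HFD, and 672, 642 and 740 CPM in VWAT_SD against 995, 1004 and 1046 CPM in SWAT_SD. It was 1.62-fold lower on HFD and 1.48-fold lower on SD (adjusted p = 0.000451 and 0.00208). Per kb, Lamb1 over Lamb2 was 1.37 to 1.44 in VWAT_HFD against 0.495 to 0.608 in SWAT_HFD, and 0.902 to 1.11 in VWAT_SD against 0.391 to 0.526 in SWAT_SD, with no overlap between the depots on either diet. Lamb3 was 5.88-fold lower in VWAT on HFD and 2.99-fold lower on SD. Lama1, an alpha chain of embryonic basement membranes, had 1.68, 1.54 and 1.29 CPM in VWAT_HFD against 0.401, 0.464 and 0.187 CPM in SWAT_HFD, 4.56-fold higher on HFD and 6.84-fold on SD. Lama4 was 1.24-fold higher on HFD (adjusted p = 0.0383) and 1.26-fold on SD (adjusted p = 0.0304), and lost these calls in 8 and 5 of 20 alternatives. On HFD these were only the 6 libraries compared (adjusted p = 0.111), and without VWAT_HFD replicates 1 or 2, any SWAT_HFD replicate, VWAT_SD replicate 2 or SWAT_SD replicate 1 (up to 0.115). On SD they were without VWAT_SD replicates 1 or 2, SWAT_HFD replicate 2 or SWAT_SD replicates 1 or 3 (up to 0.12). Lama2, Lamc1 and Nid1 gave no depot call: Lama2 differed by log2 0.01 on HFD and 0 on SD (95% interval on SD -0.37 to 0.36), Lamc1 by -0.03 and 0.03, and Nid1 by -0.21 and 0. Nid2, Lama3, Lama5 and Lamc3 did not pass either; with the replicate block Lamc3 passed on SD (log2 -0.55, adjusted p = 0.0381). The mesothelial and Schwann marker sums moved with these depot differences. So did the adipocyte marker sum, at 73.5 to 130 CPM in VWAT and 151 to 275 CPM in SWAT. Nearly all of it was Fabp4 (71.9 to 126 and 150 to 274 CPM). Adipoq, Plin1 and Cidec, at 3.19 CPM or less, had positive log2 differences on both diets that did not pass. The precursor sum was lower in VWAT on both diets without overlap, and the endothelial sum on HFD only. Most of the endothelial sum was Tek (173 to 190 CPM in VWAT_HFD, 225 to 298 CPM in SWAT_HFD). Tek was the only 1 of 9 endothelial markers called lower on HFD. Of 9 mural markers, 4 were called higher and 2 lower in VWAT on HFD, and 4 higher and 3 lower on SD. Of 6 cycling markers, 6 were called higher in VWAT on HFD and 0 on SD. Their sums were 76.4 to 292 CPM in VWAT_HFD and 65.5 to 91.7 CPM in SWAT_HFD, and 16.6 to 25.9 CPM in VWAT_SD and 8.72 to 15.4 CPM in SWAT_SD. Of 10 leukocyte markers, 4 were called lower in VWAT on HFD and 0 on SD. The part of these cells in the depot differences was not tested.

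**Figure D4:**
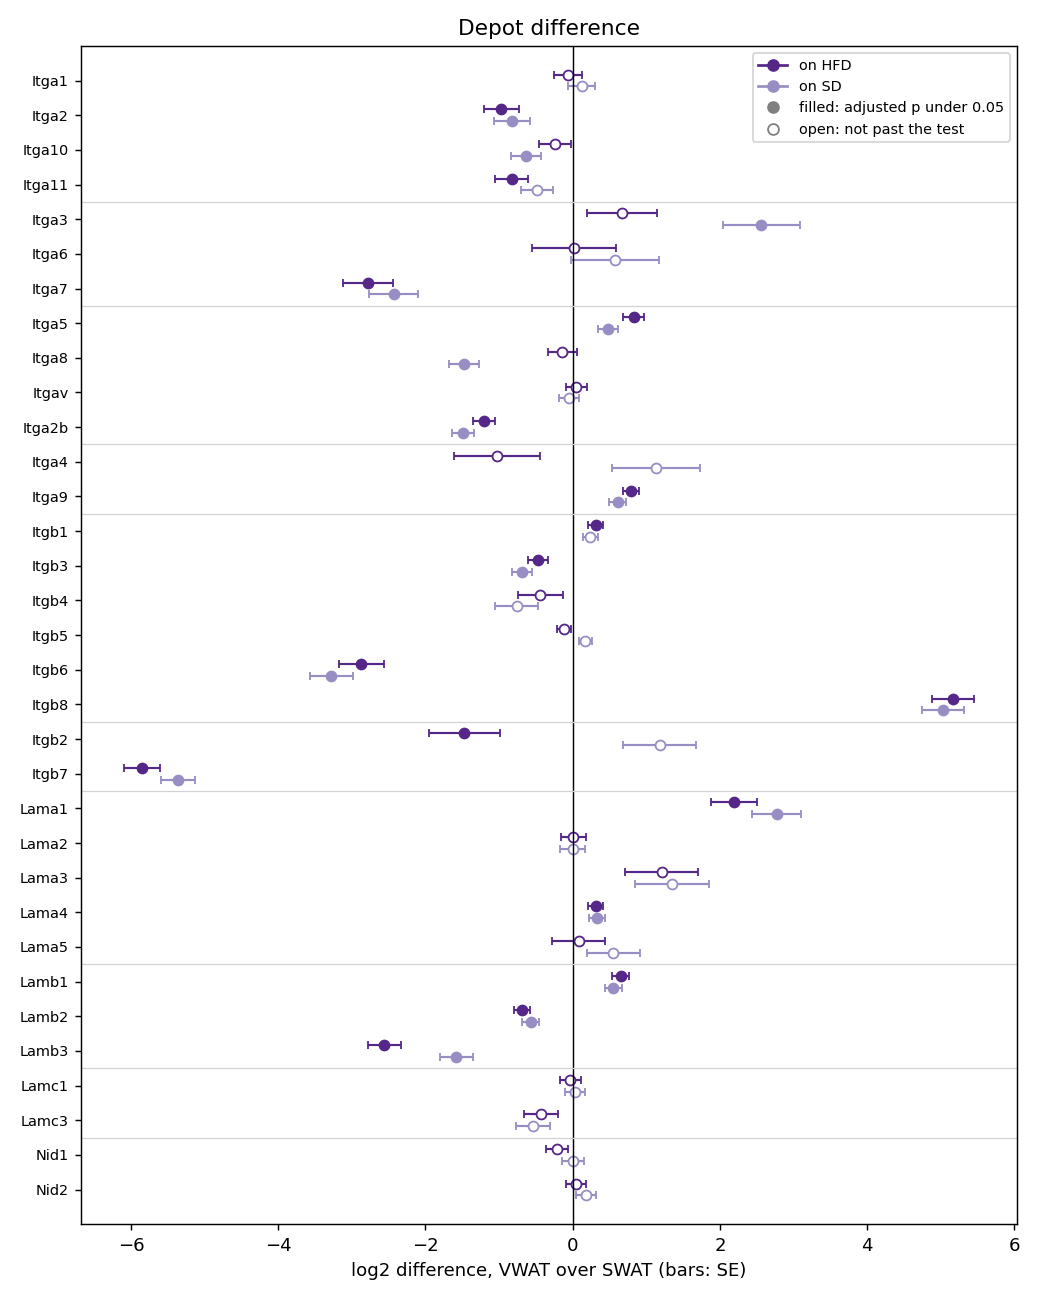
Log2 difference of each named member, VWAT over SWAT, on HFD (dark) and on SD (light), with bars of 1 SE; filled points have an adjusted p under 0.05. Itgb8 lies farthest right, at 5.17 and 5.03, and Itgb7 farthest left, at -5.85 and -5.36, while Lama2, Lamc1 and Nid1 lie near 0.

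The leukocyte-type beta subunits behaved unlike each other. Itgb7, which in lymphocytes pairs with Itga4 or Itgae, had 0.708, 0.301 and 0.452 CPM in VWAT_HFD against 26.9, 24.6 and 34.9 CPM in SWAT_HFD, and 1.28, 1.02 and 0.923 CPM in VWAT_SD against 41.4, 52.8 and 38.9 CPM in SWAT_SD. It was 57.8-fold lower in VWAT on HFD (log2 -5.85, SE 0.249, adjusted p = 2.92e-09) and 41.2-fold lower on SD (log2 -5.36, SE 0.228, adjusted p = 2.75e-09), the largest fold among the members. The leukocyte markers summed to 12.2 to 19.7 CPM in VWAT_SD, against 13.3 to 16 CPM in SWAT_SD, where Itgb7 was highest. On HFD they summed to 8.56 to 11.8 CPM in VWAT, against 14.2 to 48.8 CPM in SWAT, without overlap. Of 10 leukocyte markers tested, 4 were called lower in VWAT on HFD, beside 13.4% of all genes, and 0 on SD. In the SWAT_SD libraries Ptprc (CD45) was at 0.183 to 0.536 CPM and Itga4 at 0.229 to 0.368 CPM. In SWAT_HFD replicate 2, where Ptprc reached 6.93 CPM, Itgb7 was at 24.6 CPM, the lowest of its group. The part of leukocyte RNA in the depot difference of Itgb7 was not tested. On HFD in VWAT Itgb7 fell 2.16-fold (log2 -1.11, SE 0.291, adjusted p = 0.0228), at levels of 1.28 CPM or less. The summed leukocyte markers were lower too, at 8.56 to 11.8 CPM in VWAT_HFD against 12.2 to 19.7 CPM in VWAT_SD, with 1 of 10, Cd14, called lower. The summed Schwann markers were 7.48 to 9.85 CPM in VWAT_HFD against 10.9 to 13.8 CPM in VWAT_SD, and the part of either list in the Itgb7 change was not tested.

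Itgb2, which encodes CD18, was highest in the library with the highest leukocyte markers. It had 0.371, 0.461 and 0.387 CPM in VWAT_HFD against 0.535, 2.23 and 0.541 CPM in SWAT_HFD, with the high value in SWAT_HFD replicate 2. Its call on HFD (2.78-fold lower in VWAT, adjusted p = 0.0385) was lost in 10 of 20 alternatives; without SWAT_HFD replicate 2 the log2 difference was -0.4 (adjusted p = 0.497). Itgal and Itgam were highest in the same library, at 2.01 and 0.99 CPM. Itga2b, also known from platelets, had 6.27, 6.12 and 4.54 CPM in VWAT_HFD against 11.2, 11.6 and 16 CPM in SWAT_HFD, and 4.95, 4.61 and 4.82 CPM in VWAT_SD against 13.5, 13.1 and 13.7 CPM in SWAT_SD. It was 2.31-fold lower in VWAT on HFD (adjusted p = 4.14e-05) and 2.8-fold lower on SD (adjusted p = 6.33e-06). Of the other platelet markers, Pf4 was at 0.928 CPM or less in all libraries and Gp1ba at 0.897 to 1.97 CPM. The part of platelet RNA was not tested.

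**Figure D5:**
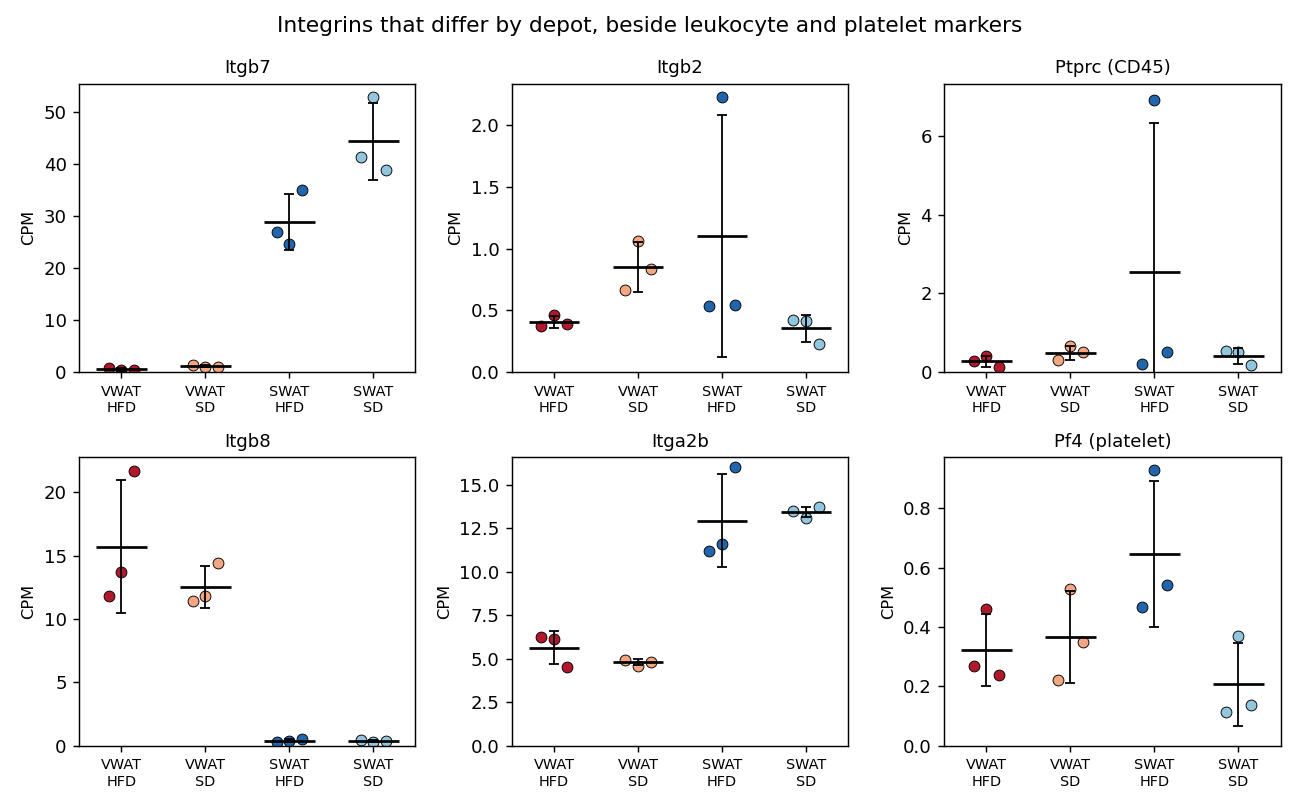
CPM of Itgb7, Itgb2, Itgb8 and Itga2b beside the leukocyte gene Ptprc and the platelet gene Pf4 in the 4 groups; points are libraries, the long bar is the mean and the error bar the SD (n = 3), cut at 0 for Ptprc. Itgb7 is high in all SWAT libraries. Ptprc is high in 1 of them, SWAT_HFD replicate 2, which is also the highest for Itgb2.

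Genes that work with the members were counted from lists that were chosen with earlier results of these data known. Of 24 tested basement membrane genes, 7 rose and 2 fell on HFD in VWAT, or 37.5% beside 15.6% of all genes; Col4a2, a chain of collagen IV, was 1.85-fold higher (3284 ± 602.8 CPM in VWAT_HFD and 1771 ± 125.1 CPM in VWAT_SD, SD, n = 3 each; adjusted p = 0.00165). Col15a1 was 1.8-fold higher and Smoc1, a calcium-binding matrix protein, 2.09-fold lower. In SWAT 1 of 24 rose, Col4a5 (1.51-fold, adjusted p = 0.0489), or 4.17% beside 1.11% of all genes. That call was lost in 15 of 20 alternatives, among them without SWAT_HFD replicates 1 or 2, any SWAT_SD replicate, VWAT_HFD replicates 1 or 2 or any VWAT_SD replicate (adjusted p of up to 0.226). Without SWAT_HFD replicate 2 or any 1 of the SWAT_SD replicates, 0 of all genes passed. DESeq2 called 5 of the 24 higher and limma voom 0, where they called 405 and 6 of all genes higher. Between the depots, 6 were higher and 5 lower in VWAT on HFD, and 6 higher and 4 lower on SD, or 45.8% and 41.7% beside 26.8% and 25.7% of all genes. Col4a6 was 11.1-fold higher in VWAT on HFD and 19.6-fold on SD, and Frem1, a basement membrane protein of skin, 10.1-fold and 9.45-fold lower. Agrn, the proteoglycan agrin, was 1.86-fold lower on HFD.

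Of 25 tested adaptor genes that link integrins to actin, 8 rose and 0 fell on HFD in VWAT by edgeR. That is 32%, beside 15.6% of all genes. At an unadjusted p under 0.05, 9 of 25 were higher and 3 lower, beside 4506 of 14266 genes in either direction. DESeq2 called 9 higher and 1 lower, beside 1581 and 1196 of all genes. Tln2, a talin, was 1.68-fold higher (adjusted p = 0.0017), and Vcl, which encodes vinculin, 1.35-fold higher (adjusted p = 0.0152). Ilk was 1.62-fold higher, at 2.664 ± 0.3455 CPM in VWAT_HFD and 1.64 ± 0.1748 CPM in VWAT_SD (n = 3 each). The Vcl call was lost by library size alone and without VWAT_HFD replicate 2 or VWAT_SD replicates 2 or 3 (adjusted p of up to 0.091), and the Ilk call without VWAT_HFD replicates 1 or 2 or VWAT_SD replicates 1 or 2 (up to 0.0868). In SWAT 0 of 25 passed by edgeR, beside 1.11% of all genes. At an unadjusted p under 0.05, 1 of 25 was higher and 1 lower, beside 2120 of 14266 genes in either direction. DESeq2 and limma voom also called 0. Between the depots 6 were higher and 3 lower in VWAT on HFD, and 6 and 4 on SD, or 36% and 40% beside 26.8% and 25.7% of all genes. These included Tns3, a tensin, 3.62-fold and 3.94-fold higher, Flna 1.76-fold higher on HFD and Tln2 1.98-fold lower on SD. Of 12 tested other integrin ligands, 6 rose and 0 fell on HFD in VWAT, or 50% beside 15.6% of all genes, among them Thbs1 (2.31-fold), Postn (3.17-fold) and Vcam1 (1.41-fold). The Postn call was lost without VWAT_HFD replicate 2 or VWAT_SD replicate 3, and the Vcam1 call without VWAT_HFD replicate 2. In SWAT 1 of 12 passed, or 8.33% beside 1.11% of all genes. This was Vcam1, the ligand of the alpha4 integrins, which rose 1.45-fold (adjusted p = 0.0402). It lost that call in 12 of 20 alternatives, among them without any SWAT_HFD, SWAT_SD or VWAT_SD replicate or VWAT_HFD replicate 1 (adjusted p of up to 0.192). Without SWAT_HFD replicate 2 or any 1 of the SWAT_SD replicates, 0 of all genes passed. DESeq2 called 4 of the 12 ligands higher and limma voom 0, where they called 405 and 6 of all genes higher. Thbs1, which encodes thrombospondin, was 6.6-fold higher in VWAT on HFD and 4.5-fold on SD, and Emilin1 1.91-fold and 1.67-fold; Tgfb1 was 1.35-fold higher on HFD. On HFD 3 of 12 ligands were higher and 0 lower by edgeR, and on SD 2 and 0; at 25% and 16.7% these shares lay below those of all genes (26.8% and 25.7%). At an unadjusted p under 0.05, 3 of 12 ligands were higher and 0 lower on HFD, beside 5248 of 14266 genes in either direction. On SD 3 of 12 were higher and 1 lower at that level, beside 5112 of 14266 genes. DESeq2 called the same numbers of ligands as edgeR.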

How the data were processed

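Poly(A) RNA of 12 libraries, 3 in each of 4 groups, was measured as strand-marked 75 bp single reads, per the labels' protocols. The authors deposited 1 table of raw read counts per gene. Per the submitters' processing notes, TopHat and HTSeq were used on mm9; versions and the strand setting are not given in the sources used here, so overlapping and antisense genes are uncertain. The entries that name no gene (3.53 to 5.57%, 1.71 to 1.95% and 15 to 20.8% of each library for reads in no gene, in several genes and not unique) were left out.

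Counts were tested with edgeR 4.0.16 in R 4.3.3 (quasi-likelihood F test, robust, TMM factors of 0.825 to 1.139, filterByExpr by group) in 1 fit of the 4 groups. The fit shares the spread among groups. The 5 contrasts were HFD over SD in each depot, their difference, and VWAT over SWAT on each diet, with Benjamini-Hochberg adjustment over 14266 genes and a threshold of 0.05. Genes "rose" or "fell" only when they passed. SE is the log2 change over the root of F, and intervals are 95%, from the t distribution with the residual and prior degrees of freedom. Depth was 17.6 to 56.1 M (1e6) gene counts. The labels do not say that the pools of 3 mice came from separate cohorts, so p-values measure the spread between these libraries. No libraries of a group agreed within sampling noise. An exact test of 3 against 3 libraries cannot go below p = 0.1, so none was used.

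Levels per kb use exon lengths of GENCODE vM21 (GRCm38), not the authors' models, and promoter windows are from RefSeq (GRCm38.p6). By the rule every member was to be named; 1 is not reported here on its own and enters only the counts over the 34 members. Also named are up to 3 genes with the lowest adjusted p in each partner list and comparison. The members and lists were chosen with earlier results of these data known.

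Libraries share replicate numbers across groups. Deviations from the group means of same-numbered libraries correlated at 0.18, 0.18 and 0.4 for the depots on SD, so the numbers may pair those libraries, from the data and not from the labels. The main fit had no replicate term, so its depot tests on SD ignored such a pairing. The replicate block was run only as an alternative. In the other comparisons at least 1 pair was at or below 0.1. Alternatives were DESeq2 size factors, library size alone, no filter, DESeq2 1.42.0, limma voom 3.58.1, a replicate block, only the 6 libraries compared, and each library left out; leaving out VWAT_HFD replicate 3 and SWAT_HFD replicate 2 together was added after seeing the data. The scripts were tested on simulated counts.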

Additional observations from a re-analysis of the deposited data

Results flagged for a closer look

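The Itgb2 values differed with diet in opposite directions in the depots, with no change past the test: the log2 change was -1.06 (SE 0.473, adjusted p = 0.146) in VWAT and 1.6 (SE 0.506, adjusted p = 0.16) in SWAT. Every VWAT_HFD library (0.371 to 0.461 CPM) lay below every VWAT_SD library (0.663 to 1.06 CPM), and every SWAT_HFD library (0.535 to 2.23 CPM) above every SWAT_SD library (0.229 to 0.421 CPM). The difference of the changes was -2.66 (SE 0.693) and did not pass edgeR's interaction test (adjusted p = 0.478). Without SWAT_HFD replicate 2 the log2 change was -1.04 (adjusted p = 0.0282) in VWAT and 0.53 (adjusted p = 0.716) in SWAT, and the difference -1.57 (adjusted p = 0.952). Ptprc was 6.93 CPM in SWAT_HFD replicate 2, the library with 2.23 CPM of Itgb2, and 0.201 and 0.499 CPM in SWAT_HFD replicates 1 and 3, and the part of leukocyte RNA was not tested.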

How the results depend on the processing

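Over the 46 member results past the threshold, 807 of 920 values under the alternatives kept their call, 113 lost it and none changed direction; 28 of the 46 never lost it. Of 32 member results with only an unadjusted p under 0.05, 44 of 632 values passed, and Itga4 for HFD in SWAT changed sign without SWAT_HFD replicate 2 (-0.28; range -0.28 to 1.84 with each library left out) and with VWAT_HFD replicate 3 left out too (-0.27). For HFD in VWAT, only the 6 libraries compared gave 1246 genes and 3 members, and leaving out both doubted libraries 4054 genes. For HFD in SWAT, library size alone gave 263 genes and 0 members, no filter 0 members, DESeq2 519 genes and 7 members, voom 12 genes and 0 members, the 6 libraries 352 genes and 2 members, and both libraries left out 249 genes. For the interaction, DESeq2 gave 33 genes and 1 member, and both libraries left out 46 genes. For VWAT against SWAT on HFD, library size alone gave 6954 genes (5830 higher, 1124 lower). Library size alone moved the median log2 change of all genes to -0.126 in VWAT and -0.177 in SWAT for the diet. The causes were not tested.

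With the replicate block, HFD in SWAT gave 247 genes and 2 members (Lama4 and Lamb3), HFD in VWAT 2279 genes and 8 members, and the interaction 1 gene. The depots then gave 3663 genes and 19 members on SD, and 3787 genes and 18 members on HFD. Only for the depots on SD did every same-numbered pair correlate above 0.1.

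Leaving out each library in turn gave 757 to 4266 genes and 2 to 10 members for HFD in VWAT, 0 to 615 genes and 0 to 4 members for HFD in SWAT, 0 to 135 genes and 0 to 1 members for the interaction, 2865 to 4411 genes and 14 to 22 members for the depots on SD, and 2852 to 4366 genes and 14 to 18 members on HFD. Depth limits members with a few counts per library, such as Itga3, Lama3 and Itga4 in SWAT.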
